A study of Mus musculus with 5 samples.

Results

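The constitutive proteasome genes encode the subunits of the proteasome that most cells make. They were taken as the rows whose Entrez identifier maps to a mouse symbol starting with Psma, Psmb, Psmc or Psmd. The inducible subunit genes Psmb8, Psmb9 and Psmb10 and named pseudogenes were left out. This rule gave 37 of the 27179 genes counted, and 36 of them had enough reads to be tested among 17472 genes. Of the 37, 31 encode subunits of the particle that acts in most tissues. The others encode 3 chaperones of its assembly (Psmd5, Psmd9, Psmd10), 2 subunits of restricted tissues (Psma8, Psmb11) and 1 protein, Psmc3ip, that binds a subunit but is not part of the particle.

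The series measured RNA in ear skin of mice without Cd1d, the molecule that shows lipids to natural killer T cells, and addressed how that loss changes the skin transcriptome. The KO group held 2 libraries titled Cd1d -/-. The control group held 3 libraries titled Cd1d +/-, whose genotype tag says WT, so the controls may carry 1 or 2 working copies. Strain, age, sex, the construction of the KO allele and whether each library came from its own mouse are not given in the labels used here, and p-values measure the spread between these libraries.

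The proteasome is the large protease of the cytosol and nucleus that degrades proteins tagged with ubiquitin. Its 20S core is a barrel of outer alpha rings, which gate the entry, and inner beta rings, where the proteases Psmb5 (chymotrypsin-like), Psmb6 (caspase-like) and Psmb7 (trypsin-like) sit. The 19S particle caps the barrel: the ATPases of its base unfold the substrate and its lid removes the ubiquitin chain. The peptides it releases also feed MHC class I molecules. In mammals the transcription factor Nfe2l1 raises proteasome genes together when the proteasome is inhibited, through promoter sites of the antioxidant response type.

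The core of such a site, TGACNNNGC, was looked for on both strands of RefSeq promoters (GRCm38.p6, 250 bases before to 50 after the start assigned to each promoter), because the members share this described regulator. Promoters were at hand for 30 of the 37 genes. The motif was found in 5 of them, 16.7%, beside 16.6% of the promoters of 13081 tested genes. Among the members with a promoter whose RNA rose in KO, 2 of 6 held it, the protease genes Psmb5 and Psmb6. These 5 windows are shown on the strand of the gene, 5′ to 3′, with the motif in capitals and up to 10 bases on each side.
Psmb5 (chr14:54618024-54618052, minus strand): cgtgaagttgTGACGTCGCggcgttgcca
Psmb6 (chr11:70525338-70525366, plus strand): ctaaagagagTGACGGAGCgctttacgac
Psmd9 (chr5:123228149-123228177, plus strand): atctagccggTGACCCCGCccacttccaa
Psmc6 (chr14:45329587-45329615, plus strand, motif on the other strand): ccagccagtaGCTAAGTCAggcattgctc
Psmd12 (chr11:107479278-107479299, plus strand, motif on the other strand): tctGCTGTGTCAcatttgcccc
The motif ended 39 bases before the start assigned to the promoter of Psmb5, 1 base before that of Psmb6 and 23 bases before that of Psmd9. For Psmb6 the assigned start lies inside the annotated gene, which begins at 70525324, so its motif lies after the first base of the gene. The box CCAAT, on either strand, was present in 13 of the 30 promoters (43.3%, beside 42.0% of tested genes), and no promoter held both motifs. Among the 6 members that rose, 2 held CCAAT as well, Psma7 and Psmb3. A link of either motif to the rise was not tested. A match is a stretch of letters and not a measured binding site.

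Library totals were 32353957 to 79160005 counts in the controls and 45270805 and 54596686 in KO. Cd1d1, the targeted gene, was at 5.52 to 9.87 CPM in controls and 1.12 and 1.19 CPM in KO (log2 fold change -2.67, SE 0.29, edgeR adjusted p = 0.0152). CPM is the read count relative to library size, with TMM scaling between libraries. Skin markers were abundant: 8 keratinocyte genes summed to 37942 to 46914 CPM in controls and to 51664 and 55238 CPM in KO, and 6 fibroblast genes to 25622 to 33087 and to 26500 and 26833 CPM. Summed levels that did not overlap between groups were those of keratinocyte genes, of 7 skeletal muscle genes (3770 to 4145 against 5378 and 5933 CPM), of 5 adipocyte genes (531.5 to 877.957 against 877.979 and 1032 CPM), all higher in KO, and of 5 endothelial genes (156 to 179 against 135 and 143 CPM), lower in KO. Of single tested genes 39.9% did not overlap. Of the 7 muscle genes 3 rose (edgeR adjusted p under 0.05), beside 2.71% of all genes, and no gene of the other marker sets passed. A set of 8 hair follicle genes stood at 647 CPM in KO replicate 1 and at 12.3 to 21.6 CPM in every other library. The part of these markers in the proteasome results was not tested. In bulk skin, fewer cells of a type and less RNA per cell cannot be told apart.

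In KO skin 7 of the 36 tested members rose and 0 fell (edgeR quasi-likelihood test, adjusted p under 0.05 over all genes), while 29 did not pass. Of all tested genes 2.71% rose and 1.05% fell, 3.76% together. Those that rose were 5 of the 7 beta ring genes (Psmb1, Psmb3, Psmb4, Psmb5, Psmb6), the alpha ring gene Psma7 and the lid gene Psmd13. The median log2 fold change was 0.27 over the members and -0.02 over all tested genes. A member's log2 fold change was above 0 for 32 of them, beside 47.6% of all genes. For 23 members both KO libraries lay above every control and for 0 below, and 13 overlapped; of all genes 19.9% lay above, 20% below and 39.9% either way. With library size alone as the scaling, 4 members rose, beside 1.53% of all genes.

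**Figure D1:**
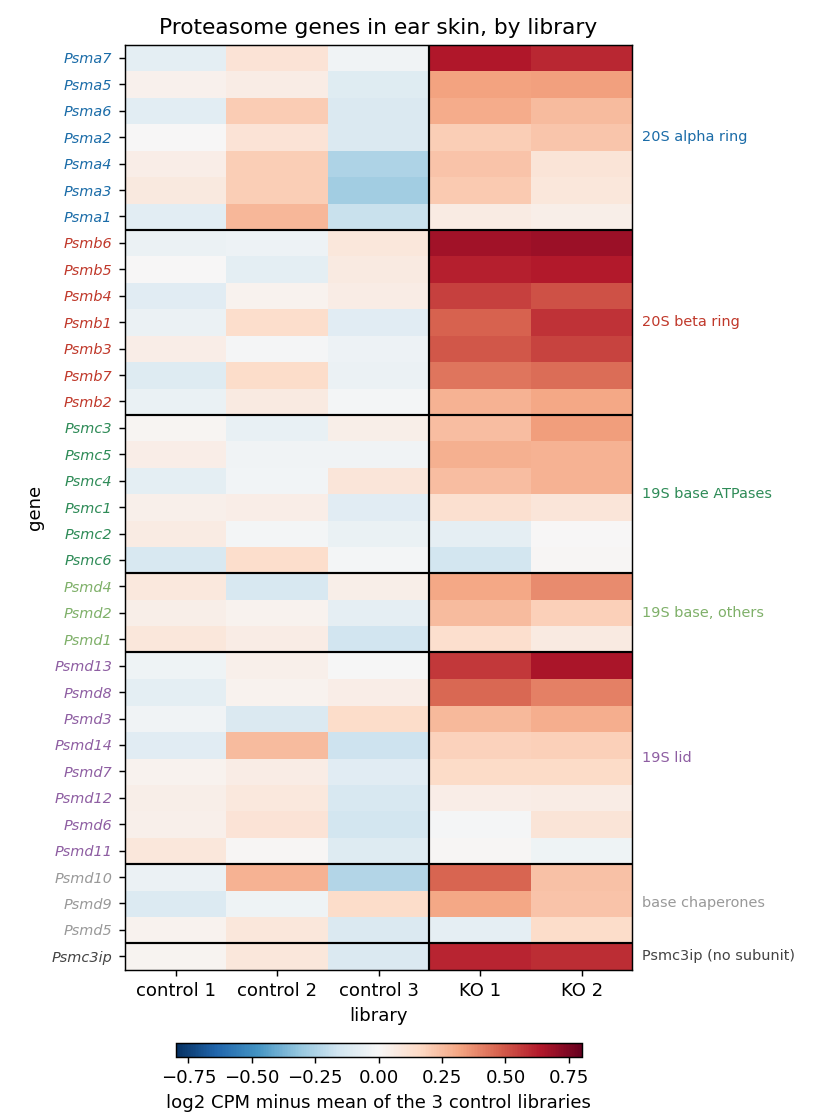
Level of 35 tested proteasome genes (rows, grouped by subcomplex and ordered by fold change) in each library (columns), as log2 CPM minus the mean of the 3 control libraries, with red for higher and blue for lower. All 7 beta ring genes are red in both KO libraries. Psma8, at 0.0587 to 0.287 CPM, is not drawn.

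Of the 3 proteases of the core, Psmb6 and Psmb5 rose and Psmb7 did not pass. Values are given for control replicates 1, 2 and 3 and then for KO replicates 1 and 2. Psmb6 was at 216, 217 and 238 CPM in controls and at 355 and 359.6 CPM in KO, a log2 fold change of 0.68 (SE 0.11, edgeR adjusted p = 0.0203), or 1.6-fold. Psmb5 was at 105, 99.1 and 109.5 CPM and at 161 and 162 CPM, a log2 fold change of 0.63 (SE 0.11, edgeR adjusted p = 0.0221). For both genes each KO library exceeded the highest control by more than the controls differed among themselves. Psmb7 was at 198, 235 and 205 CPM and at 285 and 289.7 CPM, again without overlap, and its log2 fold change of 0.43 (SE 0.12) did not pass (edgeR adjusted p = 0.0729). Together the 3 protease genes made up 541 ± 19.1 CPM (SD, n = 3 controls), against 806 ± 7.75 CPM (SD, n = 2 KO libraries).

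The other beta subunits have no protease site of their own and complete the ring. Psmb4 was at 271, 293 and 300.3 CPM in controls and 420.2 and 410.2 CPM in KO, which gave a log2 fold change of 0.53 (SE 0.11, edgeR adjusted p = 0.0332). Psmb1 was at 230.0, 261 and 222 CPM and at 329 and 355 CPM (0.52, SE 0.12, edgeR adjusted p = 0.0425). Psmb3 was at 139, 134 and 131 CPM and at 190.3 and 196 CPM (0.52, SE 0.11, edgeR adjusted p = 0.0324). The KO values of these 3 genes stood clear of all controls. Psmb2 had the smallest difference of the ring, from 78.7, 85.8 and 80.8 CPM to 99.1 and 101 CPM, and its log2 fold change of 0.29 (SE 0.11) did not pass. All 7 beta ring genes had both KO libraries above every control, beside 19.9% of all tested genes. Their median log2 fold change was 0.52.

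The alpha ring was less uniform. Psma7 rose from 199, 227 and 207 CPM to 328 and 320.2 CPM, by 0.62 on the log2 scale (SE 0.11, edgeR adjusted p = 0.0242), and its groups did not overlap. The remaining 6 alpha genes did not pass, and the median of the ring was 0.21. At the other end, Psma1 was at 121, 154 and 113 CPM in controls and 134 and 132 CPM in KO, so its KO values lay inside the control range (0.04, SE 0.14). Controls varied by 12.6 to 16.7% (SD over mean) for Psma1, Psma3, Psma4 and Psma6 and by 5.69 to 7.86% for the other 3 alpha genes, beside 3.22 to 9.25% in the beta ring. Replicate 2 was highest and replicate 3 lowest for each of these 4 alpha genes, and likewise for the lid gene Psmd14 (16.1%). In all, control replicate 2 was the highest control for 17 of the 31 subunits and replicate 3 the lowest for 18.

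None of the 9 members that encode subunits of the 19S base passed. Of the 6 ATPases, Psmc1 to Psmc6, 4 had positive values and 2 negative ones, with a median log2 fold change of 0.19. Psmc3 had the largest difference, from 173, 164 and 177 CPM to 204 and 216 CPM (0.29, SE 0.11, edgeR adjusted p = 0.163). Psmc6 had the lowest value, from 52.0, 62.7 and 56.2 CPM to 51.3 and 57.3 CPM (-0.07, SE 0.13), and its groups overlapped. Besides the ATPases, the base holds Psmd4, a receptor for ubiquitin chains, and the large scaffold subunits Psmd1 and Psmd2. Psmd4 was at 133, 115 and 129.96 CPM in controls and 156 and 163 CPM in KO (0.34, SE 0.12, edgeR adjusted p = 0.122), and Psmd1 at 149, 146 and 126 CPM and at 154 and 147 CPM (0.10, SE 0.12).

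Of the members in the lid, Psmd13, a scaffold subunit, rose and the other 7 did not pass. Psmd13 was at 179, 189 and 184 CPM in controls and 272 and 289 CPM in KO, a log2 difference of 0.61 (SE 0.11, edgeR adjusted p = 0.0231), with no overlap. Its controls varied by 2.57%, the least of the 31 subunits. Psmd11, another scaffold subunit, had the lowest fold change of the lid, at 68.8, 64.9 and 60.0 CPM in controls and 65.0 and 63.0 CPM in KO (-0.01, SE 0.12), and the groups overlapped. The lid median was 0.16, and Psmd14, the enzyme that removes ubiquitin from substrates, did not pass. Psmd8 was nearest to passing (0.43, SE 0.11, edgeR adjusted p = 0.0607).

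**Figure D2:**
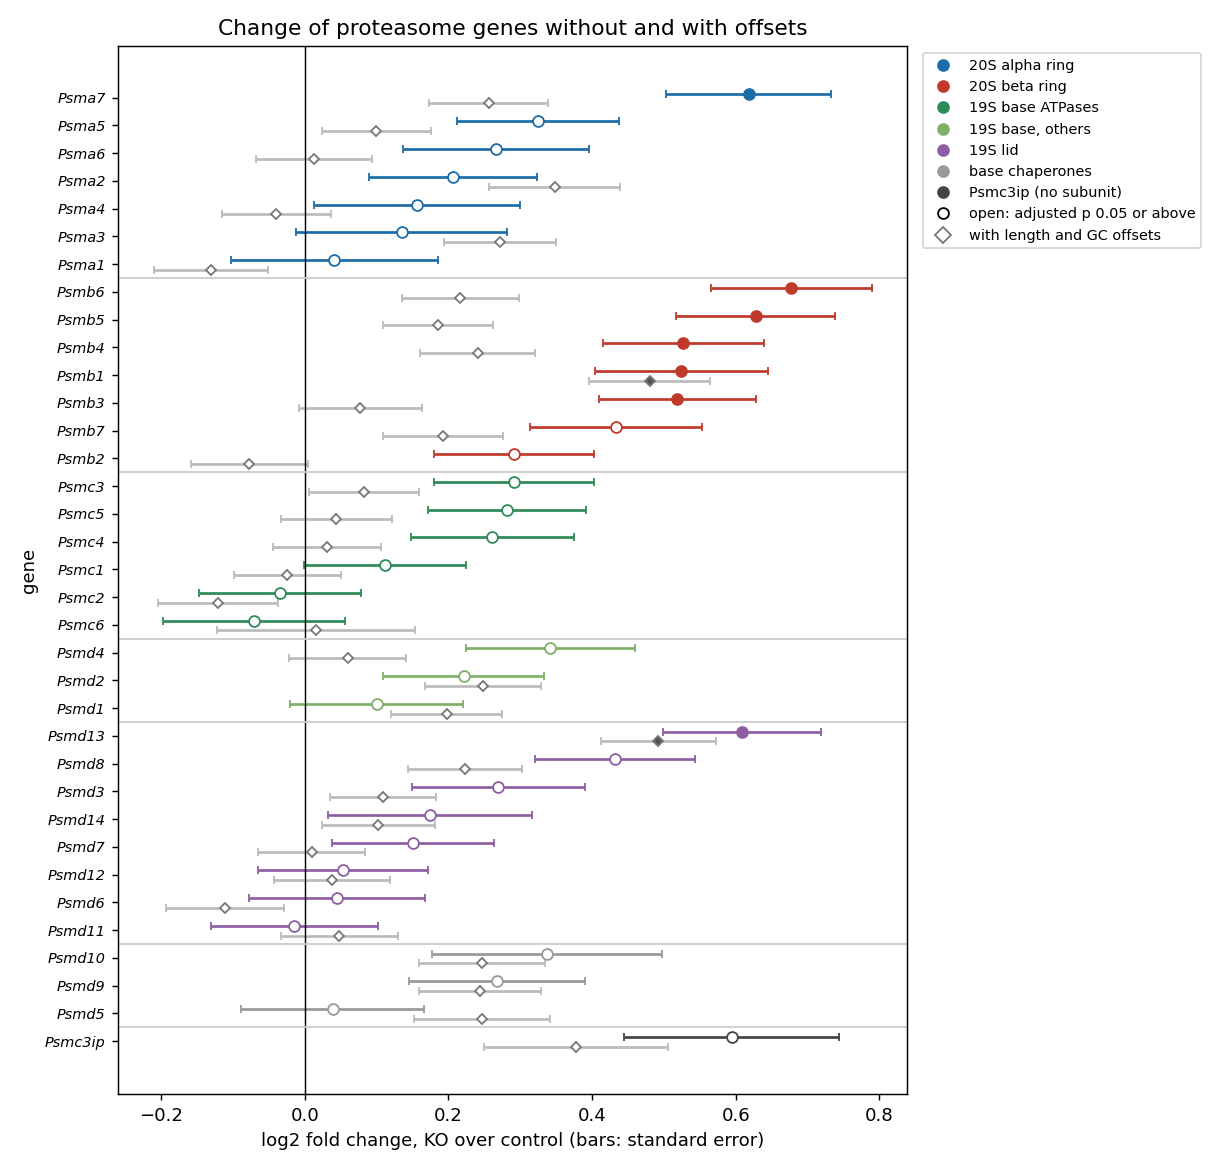
Log2 fold change of 35 tested proteasome genes, KO over control, with standard errors. Circles are the values as counted, filled where the adjusted p is under 0.05, and grey diamonds are the values after removing each library's trend on length and GC content of the principal transcript. Of the 7 filled circles, only Psmb1 and Psmd13 also have a filled diamond.

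The genes outside the common particle gave no call. Among the chaperones that help the base to form, Psmd10 (gankyrin) was at 26.04, 32.7 and 22.9 CPM in controls and 37.3 and 31.7 CPM in KO (log2 fold change 0.34, SE 0.16), and Psmd5 at 34.6, 36.1 and 31.4 CPM and at 32.3 and 37.6 CPM (0.04, SE 0.13). Groups overlapped for both, and none of the 3 chaperones passed. Psmc3ip, a partner of meiotic recombinases, was at 6.76, 7.08 and 6.13 CPM in controls and 10.1 and 10.01 CPM in KO. Its log2 fold change of 0.59 (SE 0.15) did not pass (edgeR adjusted p = 0.0561). For Psma8, an alpha subunit of the testis, 18, 22 and 2 reads were counted in controls against 3 and 4 in KO, and it did not pass (log2 fold change -1.40, SE 0.80). Psmb11, the beta subunit of thymic cortical epithelium, was left untested, with 0, 2 and 0 reads in controls against 2 in each KO library, where 3 reads amount to 0.0356 to 0.091 CPM.

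Summed over their genes, the beta ring stood at 1283 ± 43.7 CPM (SD, n = 3 controls) against 1856 ± 24.0 CPM (SD, n = 2 KO libraries), 44.7% higher. The alpha ring was at 1021 ± 110.2 and 1249 ± 26.2 CPM, 22.3% higher, the lid at 1085 ± 25.2 and 1347 ± 8.79 CPM, 24.1% higher, and the ATPases at 719 ± 5.15 and 823 ± 13.8 CPM, 14.5% higher. None of these sums overlapped between the groups. Ratios within a library do not depend on the scaling between libraries. The beta ring sum divided by the ATPase sum was 1.71, 1.85 and 1.80 in controls and 2.26 and 2.25 in KO. Divided by the alpha ring sum it was 1.24, 1.161 and 1.39 in controls and 1.45 and 1.52 in KO. The ratio of alpha ring to ATPases overlapped between the groups, at 1.38, 1.59 and 1.29 against 1.56 and 1.48. The ratio of the 20S core to the 19S particle was 0.958, 1.05 and 0.968 in controls and 1.12 in both KO libraries.

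**Figure D3:**
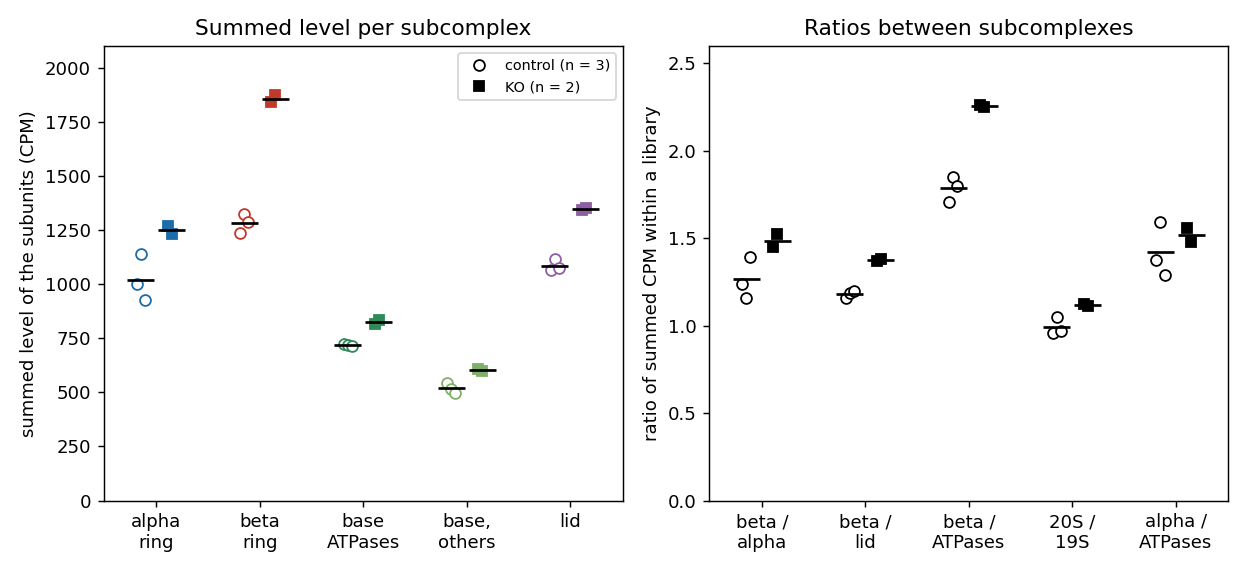
Left, summed CPM of the genes of each subcomplex in every library, with open circles for the 3 controls, filled squares for the 2 KO libraries and lines for the means. Right, ratios of such sums within a library. The KO squares lie above all circles in each pair except for alpha ring over ATPases.

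Fold change followed transcript length across the whole table, and most of the members that rose were short. Length was taken from the APPRIS principal transcript, the annotated main isoform, because the longest annotated transcript of 9 of the 37 members retains an intron. It had a median of 914 bases for the 7 members that rose (766 to 1989), 1581 bases for the 29 that did not pass (859 to 4397) and 2904 bases over the whole tested set. Of those that rose, Psmd13 (1989 bases) and Psmb1 (1758 bases) were longer than the median of those that did not pass. As a description across genes, which do not count as independent, Spearman's rho of log2 fold change with this length was -0.56 for 15809 genes and -0.57 for the 36 members, whose genes share the same 5 libraries. Of 990 tested genes with 500 to 1000 bases, 22.8% rose, with a median log2 fold change of 0.44. The 5 members of that length, Psma7, Psmb2, Psmb3, Psmb5 and Psmb6, had a median of 0.62, and 4 rose. Between 1000 and 1500 bases the medians were 0.30 for 12 members, 1 of which rose, and 0.27 for all 1567 genes (7.59% rose). Between 1500 and 2000 bases they were 0.16 for 10 members, of which Psmb1 and Psmd13 rose, and 0.15 for all 1881 genes (1.38% rose). Between 2000 and 3000 bases they were 0.21 for 7 members, 0 of which rose, and 0.02 for all 3653 genes (0.712% rose). Between 3000 and 5000 bases they were 0.07 for 2 members, 0 of which rose, and -0.10 for all 4690 genes (0.384% rose).

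**Figure D4:**
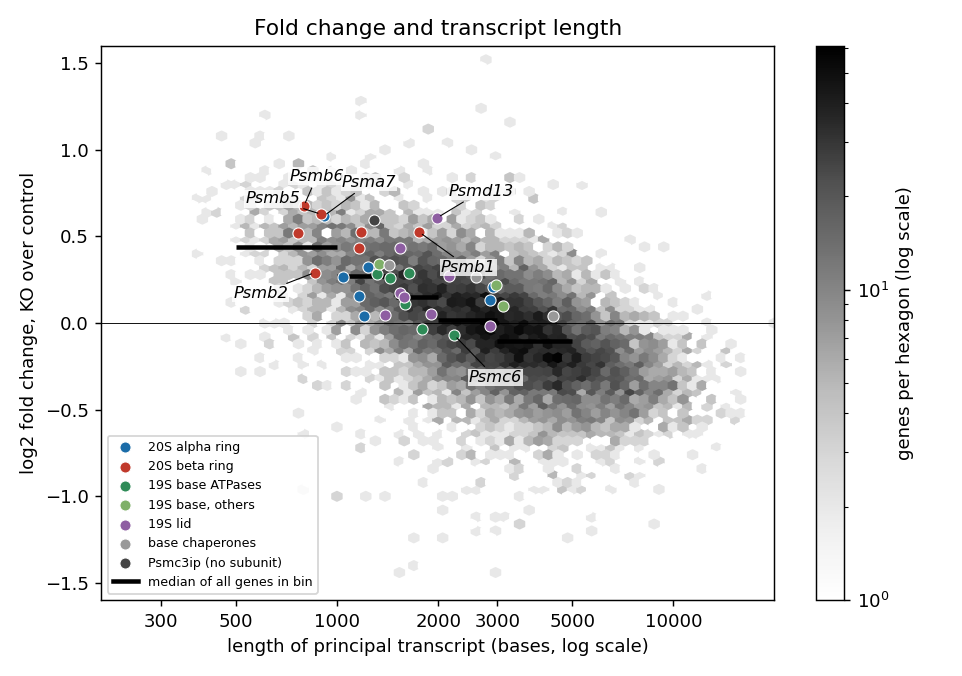
Log2 fold change, KO over control, against length of the principal transcript (log scale), with all tested genes as grey hexagons shaded by number, black bars for their median in 5 length bins and 35 proteasome genes as coloured points. Of the points named in the plot, Psmb1, Psmd13, Psmb5, Psmb6 and Psma7 lie above the median of their bin, and Psmb2 and Psmc6 lie below it.

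With each library's trend on length and GC content removed, the differences became smaller. On the principal transcripts, an alternative chosen after the data were seen, Psmb1 (log2 fold change 0.48, SE 0.08, edgeR adjusted p = 0.0117) and Psmd13 (0.49, SE 0.08, edgeR adjusted p = 0.00791) still passed, beside 2.16% of all genes that rose. Psma7 then had 0.26 (SE 0.08, edgeR adjusted p = 0.12), Psmb4 0.24 (SE 0.08, edgeR adjusted p = 0.131), Psmb6 0.22 (SE 0.08, edgeR adjusted p = 0.175), Psmb5 0.19 (SE 0.08, edgeR adjusted p = 0.217) and Psmb3 0.08 (SE 0.09, edgeR adjusted p = 0.686). The member median fell from 0.27 to 0.10 and that of the beta ring from 0.52 to 0.19. On the longest transcripts 3 members passed, Psmb1, Psmb7 and Psmd13, beside 2.59% of all genes. On length alone 0 did, beside 0.0916% of all genes, and 7 members were at an unadjusted p under 0.05 (edgeR), beside 12.1% of all genes. Ratios between subcomplexes shrank as well, taken as differences of mean log2 CPM, KO minus control. That of the beta ring to the ATPases went from 0.37 as counted to 0.18 on principal transcripts, where it stood at 0.66, 0.77 and 0.68 in controls and 0.86 and 0.91 in KO. That of the beta to the alpha ring went from 0.26 to 0.07, and that of the 20S core to the 19S particle from 0.19 to 0.07. The groups still did not overlap, but for the last 2 ratios the lower KO library exceeded the highest control by little, at 0.395 against 0.383 and 0.406 against 0.392.

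Levels can be set side by side between genes only per length. In controls the 31 subunits covered 22.7 ± 1.55 (Psmd11) to 280.1 ± 15.5 (Psmb6) CPM per kb of principal transcript (SD, n = 3). After Psmb6 came Psmb4 (244 ± 13.0), Psma7 (231 ± 15.8) and Psma6 (197 ± 24.8). Psma7 stood above Psma6 in each control library, while the order of Psmb4 and Psma7 changed between control libraries. At the low end, the order of Psmc6 (25.5 ± 2.42) and Psmd11 also changed between control libraries. In KO the order began with Psmb6 (447.8 ± 3.97), Psma7 (355 ± 6.30) and Psmb4 (351 ± 5.94). Per length, the protease genes thus stood at different levels, with Psmb6 at 280.1, Psmb7 at 183 ± 17.0 and Psmb5 at 116 ± 5.83 CPM per kb. With the longest transcripts Psmb7 stood at 74.7 ± 6.91 CPM per kb, below Psmb5. The ends of the order also depend on the length used. With the longest transcripts Psmb4 (244 ± 13.0) came before Psmb6 (231 ± 12.8) and Psmc2 (20.5 ± 0.84) was lowest, and with mean transcript lengths Psmb4 (419 ± 22.3) again came before Psmb6 (288 ± 15.97) and Psmc2 (27.0 ± 1.11) was lowest.

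**Figure D5:**
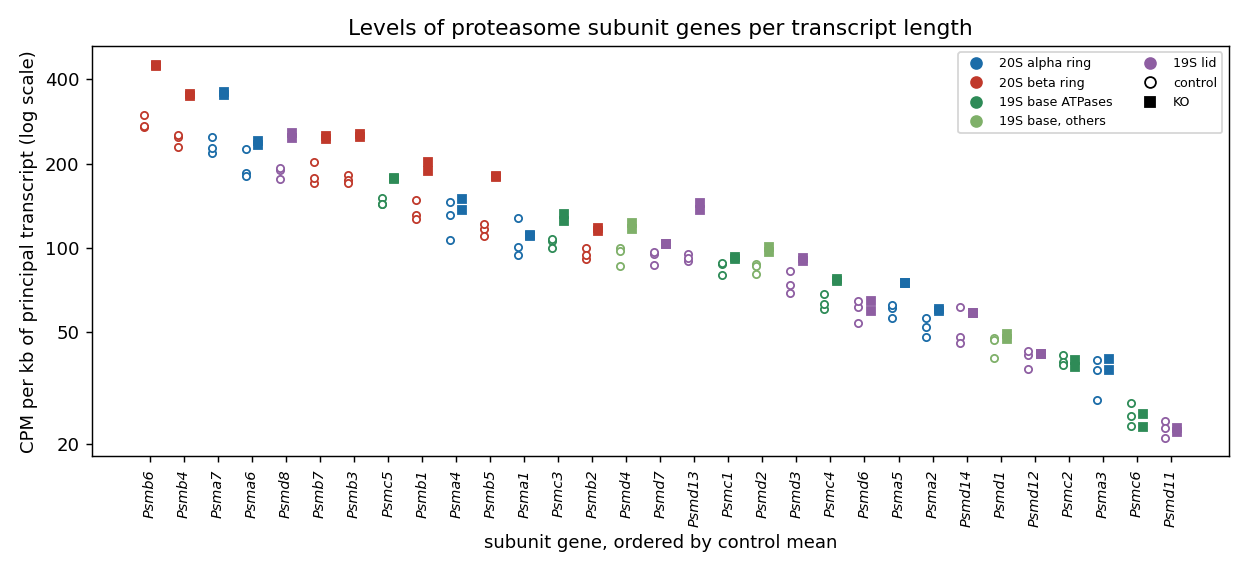
Level of each of the 31 subunit genes in every library, as CPM per kb of principal transcript on a log scale, ordered by the control mean, with open circles for controls and filled squares for KO. Psmb6, Psmb4 and Psma7 have the highest control means, and their KO squares lie above the controls.

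Genes around the particle were read from a list of 39 genes, 38 of which were tested, with 6 higher, 0 lower and 32 that did not pass, beside 2.71% higher and 1.05% lower over all genes. With length and GC offsets of the principal transcripts 3 passed, beside 2.16% of all genes that rose: of the 6, Rps27a did, joined by Txnl1 and Zfand5. On the longest transcripts, the length first planned, 7 passed, beside 2.59% of all genes that rose. These were Sem1, Psmb9 and Rps27a of the 6, joined by Pomp, Psmg3, Txnl1 and Zfand5. Sem1, a small lid subunit outside the symbol rule, rose from 197, 208 and 189 CPM to 295 and 274 CPM, by 0.52 on the log2 scale (SE 0.11, edgeR adjusted p = 0.0356). It had 0.45 with offsets of the principal transcripts (edgeR adjusted p = 0.0736) and 0.51 with those of the longest (edgeR adjusted p = 0.0127). Adrm1, a ubiquitin receptor of the base, did not pass (0.33, SE 0.18), and its control replicate 3 (182 CPM) lay between the KO libraries (171 and 186 CPM). Without that library its log2 fold change was 0.55 and passed (edgeR adjusted p = 0.0031), in a fit where 10.6% of all genes rose. With all libraries Adrm1 did not pass with offsets of the principal transcripts (0.05, edgeR adjusted p = 0.838) or of the longest (0.37, edgeR adjusted p = 0.0965). Among 5 assembly factors of the core, Psmg4 rose (0.70, SE 0.13, edgeR adjusted p = 0.0258), from 17.7, 15.5 and 18.9 CPM to 28.8 and 27.3 CPM. It did not pass with offsets of the principal transcripts (0.18, edgeR adjusted p = 0.383) or of the longest (0.16, edgeR adjusted p = 0.443). Pomp, which guides the beta ring into place, was at 127, 136 and 114 CPM and at 167 and 157 CPM and did not pass (0.36, SE 0.12, edgeR adjusted p = 0.113). With offsets of the longest transcripts it passed (0.44, edgeR adjusted p = 0.0200), and with those of the principal ones it did not (0.23, edgeR adjusted p = 0.124). Of the activators that replace the 19S cap, Psme1 rose (0.47, SE 0.11, edgeR adjusted p = 0.0432), from 111 CPM in each control to 158 and 150.5 CPM. It did not pass with offsets of the principal transcripts (0.12, edgeR adjusted p = 0.443) or of the longest (0.28, edgeR adjusted p = 0.114).

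None of the 6 listed regulators of proteasome transcription passed, with 2 positive and 4 negative log2 fold changes. Nfe2l1 was at 367, 304 and 372 CPM in controls and 318 and 333 CPM in KO (log2 fold change -0.09, SE 0.13, edgeR adjusted p = 0.713), and Nfe2l2 at 53.5, 73.3 and 51.9 CPM and at 62.0 and 47.3 CPM (-0.13, SE 0.18, edgeR adjusted p = 0.722). Both overlapped between groups, as RNA levels that do not report the processing by which the Nfe2l1 protein is activated. Ddi2 had the lowest value of the 6 (-0.65, SE 0.23, edgeR adjusted p = 0.133). It was at 16.2, 10.9 and 18.5 CPM and at 8.14 and 11.2 CPM, with overlap. Ngly1 (-0.25, SE 0.14, edgeR adjusted p = 0.342) had both KO libraries below every control, beside 20% of all genes. With offsets of the principal transcripts Ddi2 had -0.33 and Ngly1 -0.12. None of 11 genes for deubiquitinases, ubiquitin shuttles and other proteasome partners passed as counted, with a median of -0.04. With the offsets of the principal transcripts 2 of them were higher and the median was 0.06. Txnl1, a thioredoxin-like protein bound to the 19S particle, had 0.23 as counted and 0.49 with the offsets (edgeR adjusted p = 0.0076), and Zfand5, a ubiquitin-binding protein, -0.04 and 0.33 (edgeR adjusted p = 0.0333). Of the ubiquitin genes, the ribosomal fusion Rps27a rose (0.82, SE 0.14, edgeR adjusted p = 0.0203), from 1203, 1604 and 1377 CPM to 2516 and 2416 CPM, and had 0.46 with the offsets (edgeR adjusted p = 0.048). The polyubiquitin gene Ubb was at 223, 204 and 276 CPM and at 245 and 248 CPM (0.07, SE 0.14), and its groups overlapped. No source used here says how reads matching several places were handled, so the levels of these ubiquitin genes are uncertain.

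The inducible protease subunits, which replace Psmb5, Psmb6 and Psmb7 in the immunoproteasome, gave 2 calls. Psmb10 (0.65, SE 0.12, edgeR adjusted p = 0.0231) and Psmb9 (0.55, SE 0.13, edgeR adjusted p = 0.0433) rose, and Psmb8 did not pass (0.46, SE 0.12, edgeR adjusted p = 0.0632). With the offsets of the principal transcripts none of them passed, with 0.33 for Psmb10 (edgeR adjusted p = 0.124) and 0.26 for Psmb9 (edgeR adjusted p = 0.223). With those of the longest transcripts Psmb9 passed (0.48, edgeR adjusted p = 0.0434). Psmb10 (0.30, edgeR adjusted p = 0.16) and Psmb8 (0.30, edgeR adjusted p = 0.122) did not. Their share of the summed CPM of all 6 protease genes was 10.6 ± 0.76% (SD, n = 3 controls) against 10.5 ± 0.53% (SD, n = 2 KO libraries), with overlapping groups.

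Of the members, 3 lie on the chromosome of the targeted gene. Psmb4 (chromosome 3, 94884324 to 94886958 on GRCm38) is 7.87 Mb from Cd1d1, Psmd4 8.02 Mb and Psma5 21.2 Mb. Psma5, an alpha ring gene, was at 75.9, 77.5 and 69.5 CPM in controls and 92.9 and 93.3 CPM in KO (0.32, SE 0.11, edgeR adjusted p = 0.128). Whether the KO libraries carry other alleles near the targeted gene was not tested. Another gene overlaps 14 of the 37 members on the opposite strand, including Sirt3 over Psmd13, Nek6 over Psmb7 and Mlx over Psmc3ip, and no source used here gives the strand setting of the counting.

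Single libraries decided how many members passed. With control replicate 1 left out 0 rose, when 0.0% of all genes rose, and 12 members were at an unadjusted p under 0.05 (edgeR), beside 13.2% of all genes. Likewise 0 rose without KO replicate 1 (0.00554% of all genes rose) and without KO replicate 2 (0.667%), with 10 members at an unadjusted p under 0.05 each time (edgeR), beside 10.6% and 13% of all genes. Those fits take the single KO library left to be as variable as the controls. Leaving out control replicate 2 gave 11 members (4.81% of all genes rose), and leaving out control replicate 3 gave 15 (10.6%). In each of these fits the log2 fold changes of the 7 genes stayed between 0.47 and 0.72.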

How the data were processed

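RNA sequencing of ear skin gave 1 deposited table of whole-number read counts per Entrez gene, not normalized, for 5 libraries grouped by their titles. Per the submitters' processing notes, FastQC, HISAT2 2.0.4 and DESeq2 1.16.1 were used with GRCm38 (mm10). No source used here names the counting program. Symbols came from RefSeq (25275 of 27179 rows matched) and lengths from GENCODE (21572 rows).

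Genes were filtered with filterByExpr, scaled with TMM factors and tested in R 4.3.3 by the robust quasi-likelihood method of edgeR 4.0.16. The factors were 1.07, 1.04 and 1.02 in controls and 0.936 and 0.946 in KO, so they differed by group. P-values were adjusted over 17472 genes (Benjamini-Hochberg) and called under 0.05. The common biological coefficient of variation came to 0.154. Length and GC offsets are smooth trends per library (mgcv 1.9.3). DESeq2 1.42.0 and limma 3.58.1 served as alternatives, beside other scalings, filters, offsets, a replicate block and leaving out each library. On simulated counts (17239 genes) the comparison of KO with control found 20% of the genes altered 1.5-fold and 92% of those altered 2-fold, with 8 false calls among 164. These counts had the same dispersion for every gene and no trend with length, so they cannot show the error under such a trend.

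The members, gene lists and alternatives were chosen with earlier results of these data known. Values per library are given for members that passed, for the highest and lowest log2 fold change in each role, for the 3 proteases, and for members on chromosome 3. Listed neighbours are named where they passed or as Nfe2l1, Nfe2l2, Pomp, Adrm1, Sem1 and the 3 inducible subunits. Psma3, Psma4, Psma6, Psmd8, Psmd14, Psmc2, Psmg3, Txnl1, Zfand5, Ddi2, Ngly1 and Ubb were added after their values were seen. Counts of libraries in a group differed by at least 24 times the sampling noise (chi-square over its degrees of freedom), and no library was counted as a duplicate. Paaf1 was not analysed here, and some ubiquitin genes are not reported here.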

Additional observations from a re-analysis of the deposited data

How the results depend on the processing

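Under other scalings (DESeq2 size factors, upper quartile), a filter of 1 CPM, no filter, robust estimation off, DESeq2, limma voom and the replicate block, the same 7 members passed as higher, with up to 10 in all, and 0 fell. With library size alone 4 passed, the member median was 0.12 while that of all genes was -0.16, and 3 listed pathway genes and 1242 genes in all passed. Over all genes, 657 passed, against 1036 with no filter, 1808 with DESeq2, 2037 with the replicate block and 21 with length offsets. DESeq2 called 11 pathway genes, 1 of them lower. With length and GC offsets 3 members passed (median 0.15, and 7 pathway genes), and with the replicate block added 2 (0.14, and 5 pathway genes). With principal transcripts 2 passed (0.10, and 3 pathway genes, 1 of them among the 6), and with length alone 0 (0.11, and 0 pathway genes). The source of the trend with length was not tested. Leaving out 1 library each, counts ranged from 0 to 3277 for all genes, 0 to 15 for members and 0 to 12 for pathway genes. The labels tie the replicate numbers to no batch, and same-numbered libraries deviated together with correlations of only 0.016 and 0.0641, so the replicate block is a check only. The control median of members was 67.4 CPM per kb with the longest transcripts, the length first planned, 111 with mean transcript lengths and 85.0 with principal ones, which were added after the data were seen.

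Small differences changed sign. Psma1 had -0.11 with library size alone, -0.035 with the replicate block, -0.18 with length and GC offsets, -0.29 with length offsets, -0.18 with block and offsets and -0.13 with principal transcripts. Psmb2 had -0.12, -0.15, -0.12 and -0.077 in the last 4 of these. Psmd5 had -0.11 and Psmd1 -0.048 with library size alone, and Psmd5 -0.019 with the block. Psmd11 had 0.065, 0.13 and 0.048 with length and GC offsets, with the block added and with principal transcripts, Psmc6 0.083 and 0.016 in the latter 2, and Nfe2l1 0.039 with length offsets and 0.0086 with principal transcripts. The cause was not tested. Without 1 library, Psma1 lay between -0.046 and 0.18, Psmd5 between -0.075 and 0.15, Psmd11 between -0.065 and 0.038, Psmc6 between -0.15 and 0.0074 and Nfe2l2 between -0.33 and 0.055.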
